A study of Mus musculus with 2 samples.

Results

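The cells described here are insulin-containing islet cells of TBL/RBKO mice with few insulin transcripts and low Gcg, Sst and Ppy. They were selected on measured values: of the barcodes with more than 2500 detected genes and under 10% mitochondrial UMIs, those with Ins1 plus Ins2 at 300 or more and under 2000 UMIs per 10000, Gcg under 100, Sst under 40 and Ppy under 150. A UMI is a molecular tag that stands for a single captured transcript. The rule found 112 cells among 4179 barcodes of the TBL/RBKO library that passed the filter (2.68%, exact 95% binomial interval 2.21 to 3.22), or among 12900 barcodes in the whole series. In the TBL/RBKO library 672 cells lay in the same insulin window at any level of the other hormones. Low insulin was thus not particular to the 112 cells. Because measured values chose the cells, everything below is a description without a test, and all intervals cover counting error only.

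Islets came from mice of 5 weeks, pooled from several animals for each genotype, kept overnight in RPMI medium with 10% serum, dissociated and run as 1 droplet library per genotype (Chromium 3′ chemistry). TBL/RBKO mice carried Cre recombinase knocked into the Ins1 gene together with loxP-flanked Tbl1x and Tbl1xr1, and the control animals, labelled wildtype, were littermates without Cre. The question behind the comparison was what the loss of both genes does to β-cells. With 1 library on each side, genotype, animal pool and library cannot be told apart, and values from the control library are given for orientation.

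β-Cells take up glucose, turn its metabolism into electrical activity and release insulin from granules, and a small set of transcription factors keeps the insulin genes on and those of the other islet hormones off. TBL1X and TBL1XR1 are exchange factors of a nuclear corepressor complex that contains NCOR1 and the deacetylase HDAC3. Insulin transcripts make up a large part of the RNA of a mature β-cell, so a cell that loses them shifts the share of every other transcript. For that reason the 5 hormones of the rule were left out of the denominator, and a level is given as UMIs per 1000000 other UMIs (CPM).

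The insulin content of the 112 cells ran from 300.1 to 1975 UMIs per 10000, with a median of 1125. It was 4373 in the 447 TBL/RBKO cells that met the same limits on the other hormones and held 2000 or more, called high-insulin cells below, and 5309 in the 2269 such control cells. Cells marked as non-endocrine were a guide to free RNA in the suspension. Their median was 13.6 in 261 TBL/RBKO cells and 77.2 in 140 control cells. They were chosen with insulin under 300, so a level below that limit was fixed in advance. In the TBL/RBKO library 559 cells had insulin at 300 or more and met the limits on Gcg, Sst and Ppy. The low-insulin cells were 20.0% of them (112 of 559, interval 16.8 to 23.6). The same rule took 13 of 2282 such control cells (0.57%, interval 0.304 to 0.972). Those 13 were shallow, with a median of 8717 UMIs and 3139 genes against 42819 UMIs and 6660 genes in the low-insulin cells, so they are not used as a counterpart.

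The 2 insulin genes were not lower by the same factor. The median of Ins2 was 999 UMIs per 10000 in the low-insulin cells, 3744 in the TBL/RBKO high-insulin cells and 3819 in the control cells. The median of Ins1 was 115, 619 and 1466 in the same order. Summed over cells, there were 0.120 Ins1 UMIs for each Ins2 UMI in the low-insulin cells, against 0.172 in the high-insulin cells and 0.382 in control. Cre was inserted at Ins1 in the TBL/RBKO mice only, so the Ins1 difference from control cannot be told apart from that insertion.

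Cre transcripts were looked for because Cre sits at Ins1, so that its expression comes from that locus. The 250 bases before the Ins1 start (RefSeq, GRCm38.p6, chr19:52264047-52264296, plus strand) are shown with TAAT, the core that homeodomain factors such as PDX1 can bind, in capitals on either strand.
Ins1: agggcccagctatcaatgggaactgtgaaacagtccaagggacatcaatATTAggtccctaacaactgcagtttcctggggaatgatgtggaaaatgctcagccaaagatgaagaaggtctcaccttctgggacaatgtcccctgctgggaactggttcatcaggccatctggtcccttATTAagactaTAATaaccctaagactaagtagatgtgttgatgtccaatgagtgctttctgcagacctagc
It holds 3 matches, and 54.9% of all 32851 promoters of that length hold at least 1, so the match is common. A Cre UMI was found in 18 of the 112 low-insulin cells (16.1%, interval 9.81 to 24.2) and in 108 of the 447 high-insulin cells (24.2%, interval 20.3 to 28.4). It was found in 0.723% of 968 TBL/RBKO α-cells, defined by Gcg, and in none of 2269 control cells (interval 0 to 0.162%). The low-insulin cells held 272 Cre UMIs, of which 1 cell gave 176. Without that cell there were 1.37 Cre UMIs for every 1000 Ins1 UMIs (interval 1.11 to 1.68), against 0.526 (0.496 to 0.557) in the high-insulin cells without their top cell. Ins1 is part of the rule that chose the cells, so the higher ratio is partly set by that choice. The Cre UMIs without the top cells were 96 and 1136, while the whole sets held 4916613 and 18889986 UMIs without the 5 hormones. On that scale Cre was lower in the low-insulin cells.

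**Figure D1:**
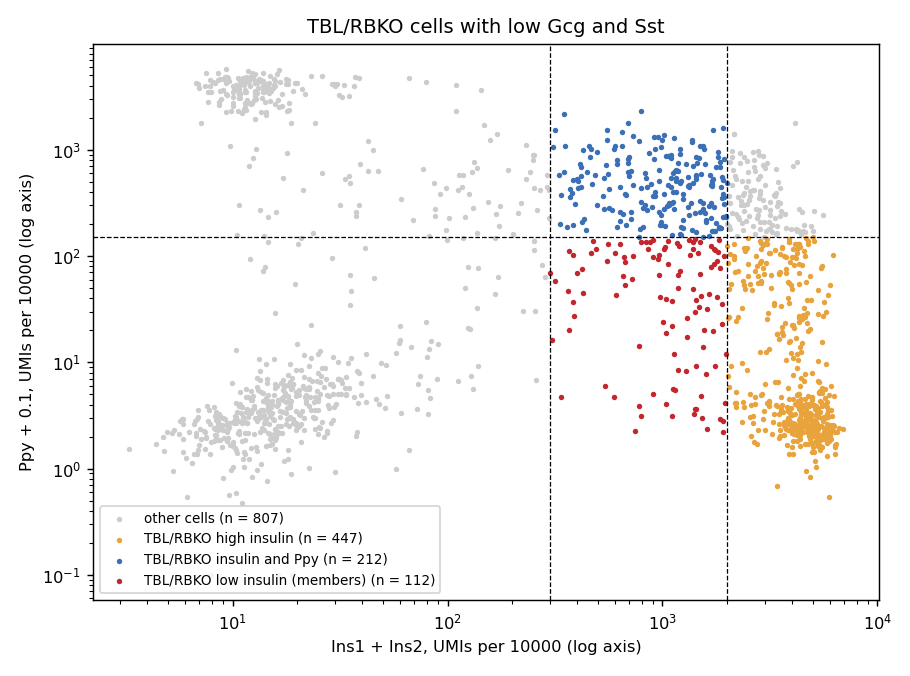
Ins1 plus Ins2 (x axis) against Ppy (y axis, 0.1 added), both in UMIs per 10000 on log axes, for TBL/RBKO cells with low Gcg and Sst; each point is a cell and dashed lines are the limits of the rule. The 112 low-insulin cells (red) run on into the 212 cells with Ppy (blue) and the 447 high-insulin cells (orange) without a gap.

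Cells lay close to both sides of the insulin, Ppy and Gcg limits. At the upper insulin limit the nearest cells lay at 1975 inside and 2002 outside, and 11 cells inside and 19 outside were within 10% of it. At the lower limit the nearest cells lay at 300.1 and 285.6. At the Ppy limit they lay at 143.2 and 150.8, with 10 and 6 cells within 10% of it, and at the Gcg limit at 97.5 and 103.1. The Sst limit lay between cells at 38.8 and 55.8, with no cell outside within 10% of it. In the same insulin window with Gcg and Sst low, 212 more cells had Ppy at 150 or more, and over all hormones the window held 672 cells, of which the low-insulin cells were 16.7% (interval 13.9 to 19.7). Ppy encodes pancreatic polypeptide. Its median was 47.6 UMIs per 10000 in the low-insulin cells, against 3.75 in the high-insulin cells and 2.85 in the non-endocrine cells. All of these sets were chosen with Ppy under 150.

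The label of β-cell was checked against marker genes. Pdx1, Nkx6-1, Nkx2-2, Pax6 and Neurod1, transcription factors of the β-cell, were seen in 92.0%, 96.4%, 89.3%, 98.2% and 100% of the low-insulin cells. Mafa, the factor that comes on as β-cells mature, was seen in 28 of 112 cells, and Slc2a2, the glucose transporter GLUT2, in 25.9%, against 98.3% and 98.4% of control cells. These shares rise with depth, and the median was 42819 UMIs in the low-insulin cells and 21697 in the non-endocrine cells. Thinned to 5000 UMIs without the 5 hormones, the low-insulin cells showed Pdx1 in 37.5%, Nkx6-1 in 49.1%, Nkx2-2 in 55.4%, Pax6 in 68.8%, Neurod1 in 79.5% and Slc2a2 in 8.93% of cells. In the high-insulin cells the thinned shares were 49.4%, 63.1%, 62.9%, 67.8%, 75.8% and 41.4% in the same order, and in control 70.8%, 84.4%, 71.0%, 79.9%, 74.9% and 89.9%. In the non-endocrine cells none of the 6 was above 2.30%.

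Markers of the other endocrine types were not all low. Irx1 and Irx2 of α-cells and Hhex of δ-cells did not reach 10 CPM, and Ghrl of ε-cells was at 0. The α-cell list as a whole summed to 965 CPM, of which 864 CPM was Ttr, transthyretin, against 4288 in the high-insulin cells, 983 in control and 64.5 in the non-endocrine cells. The δ-cell list summed to 108 CPM, against 124, 72.0 and 49.7. Pyy, the marker counted for PP cells, was abundant in the low-insulin cells and is described below with the hormones.

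Non-endocrine transcripts were few but uneven. In 5 low-insulin cells the markers of an endothelial, stromal or ductal class reached 10 or more UMIs per 10000. The 4 endothelial markers summed to 66.1 CPM over all 112 cells and 1.93 CPM without these 5, against 4.71 in the high-insulin cells and 766 in the non-endocrine cells. The 5 stromal markers summed to 104 and 8.6 CPM, against 13.5 in the high-insulin cells, 0.718 in control and 3489 in the non-endocrine cells. The 3 stromal markers that reached 10 CPM stayed more than 2-fold higher in both comparisons when such cells were left out of every set. Macrophage markers summed to 4.88 CPM, T cell markers to 0.203 CPM with 2 of 3 at 0, and acinar markers to 0.61 CPM with 4 of 5 at 0. B cell markers summed to 53.1 CPM, against 15.9 in the high-insulin cells and 23.9 in control, and were absent from 79 of the 112 cells. Ductal markers summed to 114 CPM (55.5 without the 5 cells), against 456 in the high-insulin cells and 44.9 in control. Schwann cell markers summed to 10.8 CPM, against 3.76 and 6.16. Of the Mafa UMIs 43.5%, and of the Slc2a2 UMIs 35.5%, also lay in these 5 cells.

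The whole series held 241434108 UMIs in 7067 control barcodes and 185062206 in 5833 TBL/RBKO barcodes, with 14 barcode sequences shared by the libraries, none of them a low-insulin cell. The low-insulin cells had a median of 38072 UMIs without the 5 hormones, close to the 36466 of the high-insulin cells and above the 24133 of control. Of the low-insulin cells 74.1% had 6000 genes or more, against 65.8% of the high-insulin and 44.5% of the control cells. The study kept only cells with fewer than 6000 genes. The rule here set no such limit, so 83 of the 112 cells lie outside it. The mitochondrial share of the low-insulin cells was 5.43% of all UMIs at the median, against 3.40% and 2.60%. Of the UMIs without the hormones it was 6.19%, 6.06% and 5.59%. Thinned to 5000 such UMIs, a cell showed 2382.5 genes at the median, against 2308 and 2470.

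Against the high-insulin cells of the same library, 9124 genes reached 10 CPM on either side. Of these, 368 (4.03%) were more than 2-fold higher in the low-insulin cells and 174 (1.91%) more than 2-fold lower, and the median log2 ratio of all genes was 0.10. Against the control high-insulin cells, 734 of 9495 genes (7.73%) were higher and 637 (6.71%) lower, with a median of -0.09. These shares over all genes are the background for the counts of listed genes below. Against the 212 cells with Ppy, 154 of 9054 genes (1.7%) were higher and 73 (0.806%) lower, with a median of 0.15. On the scale of all UMIs, hormones included, every log2 ratio is 0.65 larger against the high-insulin cells and 0.91 larger against control, so genes with a smaller deficit than that change side.

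The 2 targeted genes were higher, not lower, in the low-insulin cells. Tbl1x (X:76554141-76706597, GRCm39) stood at 708 CPM (interval 685 to 732), against 448 in the high-insulin cells and 195 in control. Its log2 ratio was 0.66 (0.60 to 0.72) and 1.86 (1.80 to 1.91). Tbl1xr1 (3:22129947-22270770) stood at 296 CPM (281 to 312), against 163 and 39.9, with log2 ratios of 0.86 (0.77 to 0.95) and 2.89 (2.80 to 2.98). On the scale of all UMIs every ratio is larger, so this direction could not change there. Reads of 3′ chemistry do not show whether a floxed exon is present, so these values do not check the deletion. Of the partners, Ncor1, Hdac3 and Gps2 were within 2-fold in both comparisons.

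Tbl1x was detected in every low-insulin cell, with a median of 6.72 UMIs per 10000 other UMIs and a range of 0.725 to 17.5, and the medians were 4.03 and 1.79 in the high-insulin and control cells. For Tbl1xr1 the medians were 2.94, 1.39 and 0.343. The cell populations overlapped in range for both genes, and it was their centres that stood apart.

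**Figure D2:**
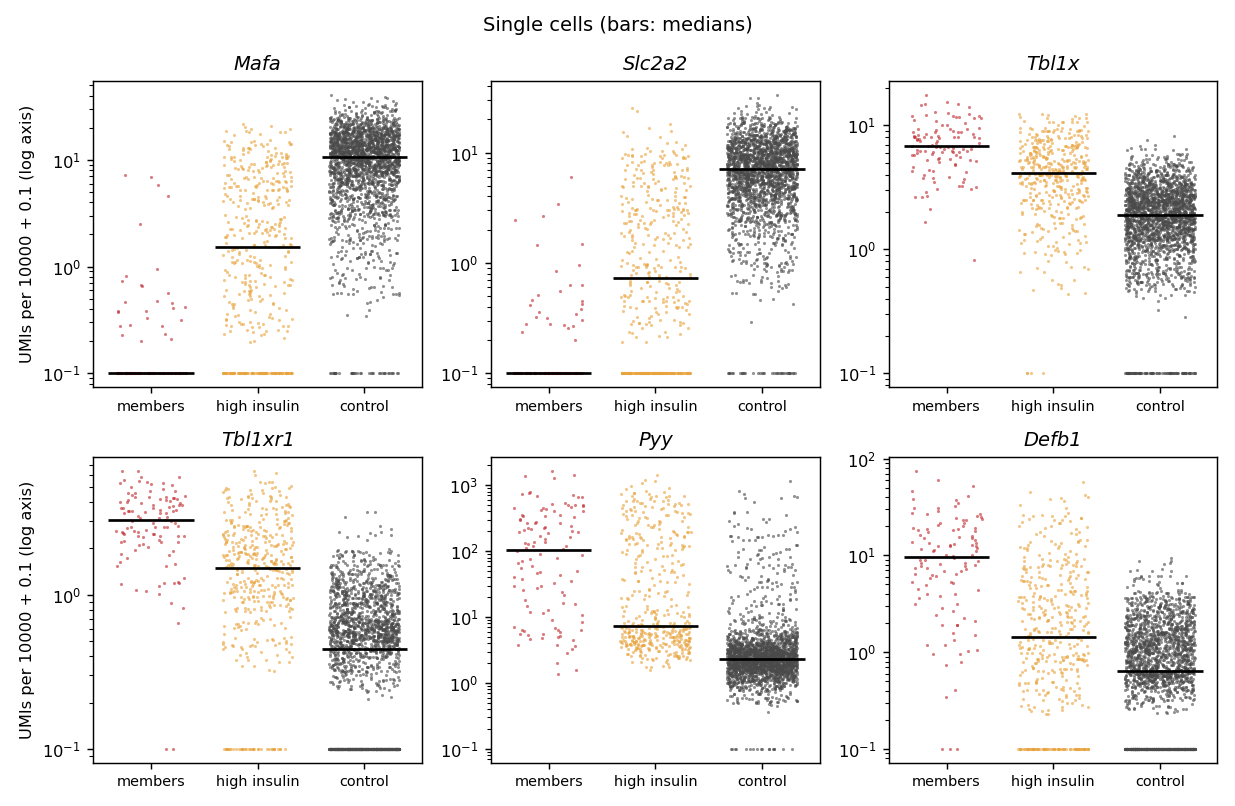
Levels of 6 genes in single cells, in UMIs per 10000 UMIs without the 5 hormones (0.1 added, log axis), for the 112 low-insulin cells (members), 447 TBL/RBKO high-insulin cells and 2269 control cells; bars are medians. The low-insulin cells are lowest for Mafa and Slc2a2, with medians at 0, and highest for Tbl1x, Tbl1xr1, Pyy and Defb1.

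Among 19 β-cell transcription factors, all of which reached 10 CPM against the high-insulin cells, Mafa alone was more than 2-fold lower and Glis3 alone more than 2-fold higher, with a median log2 ratio of -0.01. Mafa (15:75617339-75620077) stood at 29.9 CPM (25.3 to 35.1), against 328 and 1097. Its log2 ratio was -3.45 (-3.70 to -3.22) within the library and -5.20 (-5.44 to -4.96) against control. Without the 5 cells with non-endocrine markers Mafa was at 17.8 CPM. In cells thinned to 5000 UMIs Mafa was found in 7.14% of the low-insulin cells, 50.1% of the high-insulin cells, 92.7% of control cells and 0.766% of the TBL/RBKO non-endocrine cells.

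The factors that specify the lineage differed less. Pdx1, which activates insulin, was at 113 CPM, against 149 in the high-insulin cells (log2 -0.40, interval -0.53 to -0.26) and 254 in control (-1.17, -1.29 to -1.05). Nkx6-1 was at 154, 222 and 432 CPM. Pax6 was at 313, 276 and 356, Nkx2-2 at 225, 251 and 261, and Neurod1 at 398, 387 and 287 CPM. Glis3, a zinc-finger factor that acts on the insulin gene, was at 1025 CPM, against 472 (log2 1.12, 1.07 to 1.17) and 299. Against control, 3 of 18 factors were more than 2-fold lower, Mafa, Nkx6-1 and Pdx1, and 1 was higher. The median of the list was -0.42 there and turned positive on the scale of all UMIs, as did Pdx1 and Nkx6-1 within the library.

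Of 19 genes of glucose sensing and secretion, 8 were more than 2-fold lower than in the high-insulin cells and none higher, with a median log2 ratio of -0.81. Against control 11 were lower and 3 higher, with a median of -1.47. Both medians stayed negative on the scale of all UMIs. Slc2a2 (3:28752051-28785508) was at 21.8 CPM (17.8 to 26.3), against 203 and 755. Ppp1r1a, a phosphatase inhibitor, was at 19.1 CPM, against 175 and 619, a log2 ratio of -3.20 (-3.51 to -2.90) and -5.02 (-5.32 to -4.72). Trpm5, a calcium-activated channel, was at 6.31, 45.4 and 89.1 CPM. Sytl4, a granule-docking protein, was at 51.1, 191 and 431 CPM, and Prlr, the prolactin receptor, at 174, 471 and 817.

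The subunits of the ATP-sensitive potassium channel were lower as well, with Abcc8 at 245, 483 and 706 CPM and Kcnj11 at 16.3, 33.4 and 45.7. Not every step of the pathway followed. Glp1r, the receptor for the incretin GLP-1, was at 1006 CPM, against 839 and 686. Cacna1c, a calcium channel subunit, was at 940, 649 and 590 CPM. Rgs4, a regulator of G protein signalling, was at 1186 CPM, against 1008 and 27.3.

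Among 15 secretory granule proteins, 3 were more than 2-fold lower than in the high-insulin cells, with a median of -0.32 that turned positive on the scale of all UMIs, and none was higher. Slc30a8, the zinc transporter of the insulin granule, was at 89.5 CPM (81.3 to 98.3), against 397 and 1335, a log2 ratio of -2.15 (-2.29 to -2.01) and -3.90 (-4.04 to -3.76). Scg3 was at 458, 920 and 1360 CPM. Vgf, a granule peptide precursor, had 2 UMIs in all 112 cells. Its log2 ratio was -5.35 (-8.40 to -3.48) within the library. Chga, chromogranin A and one of the genes named as a marker of these cells, was at 15581 CPM, against 18968 in the high-insulin cells and 11284 in control, so that it was lower within the library (log2 -0.28) and higher against control (0.47), and the former turned positive on the scale of all UMIs. Chgb, chromogranin B, was at 7889, 7095 and 1471 CPM.

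Of 18 other peptide hormones only 5 reached 10 CPM, namely Iapp, Pyy, Gast, Ucn3 and Pomc. Iapp, which is co-released with insulin, was at 36885 CPM, against 90877 and 97971, a log2 ratio of -1.30 (-1.31 to -1.29) and -1.41 (-1.42 to -1.40). Ucn3, a peptide of mature β-cells, was at 167, 309 and 353 CPM. Pyy, peptide YY, was at 24473 CPM, against 13095 and 931, and at 459 in the non-endocrine cells. Pyy was uneven from cell to cell, from 1.25 to 1662 UMIs per 10000 with quartiles at 12.5 and 335. Gast, gastrin, was at 153 CPM (142 to 164), against 89.3 and 2.69, but it was found in 23.2% of the low-insulin cells and 1 cell held 42.9% of its UMIs. Without the deepest barcodes its log2 ratio over the high-insulin cells was 2.17, against 0.78 with them. After thinning Gast was found in 6.25% of the low-insulin cells, 9.17% of the high-insulin cells, 22.2% of the cells with Ppy and none of the non-endocrine cells.

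Defb1, a defensin, and Tmem252, a membrane protein, were the other genes named as markers of these cells. Defb1 (8:22266584-22285201) was at 1338 CPM (1305 to 1370), against 460 and 87.6, with log2 ratios of 1.54 (1.49 to 1.59) and 3.93 (3.88 to 3.98). It was seen in 97.3% of the low-insulin cells, and after thinning in 84.8%, against 51.2%, 30.3% and 6.13% of the high-insulin, control and non-endocrine cells. Tmem252 (19:24651363-24659757) was at 80.5 CPM (72.8 to 88.9), against 84.6 in the high-insulin cells, a log2 ratio of -0.07 (-0.23 to 0.09). In 2269 control cells it had 1 UMI, a log2 ratio of 12.36 (9.88 to 17.67). In cells with fewer than 6000 genes, however, the log2 ratio of Tmem252 over the high-insulin cells was 2.13.

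Of 20 genes of the unfolded protein response, 4 were more than 2-fold lower than in the high-insulin cells and none higher, with a median log2 ratio of -0.63. Against control 4 were lower, and Ern1 was higher, with a median of -0.60, and on the scale of all UMIs the medians were 0.02 and 0.31. The lower genes were the same 4 in both, all of them luminal proteins of the endoplasmic reticulum. Sdf2l1 was at 40.3 CPM (34.9 to 46.3), against 135 and 162. Manf was at 166, 383 and 451 CPM, Pdia6 at 165, 370 and 387, and Creld2 at 31.3, 70.5 and 66.1. Ero1b, the oxidase that supports disulfide formation in proinsulin, was at 368, 988 and 1923 CPM. Ern1, which encodes the sensor IRE1α, was at 299, 186 and 128 CPM, and Hspa5, the chaperone BiP, at 709, 1150 and 888.

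**Figure D3:**
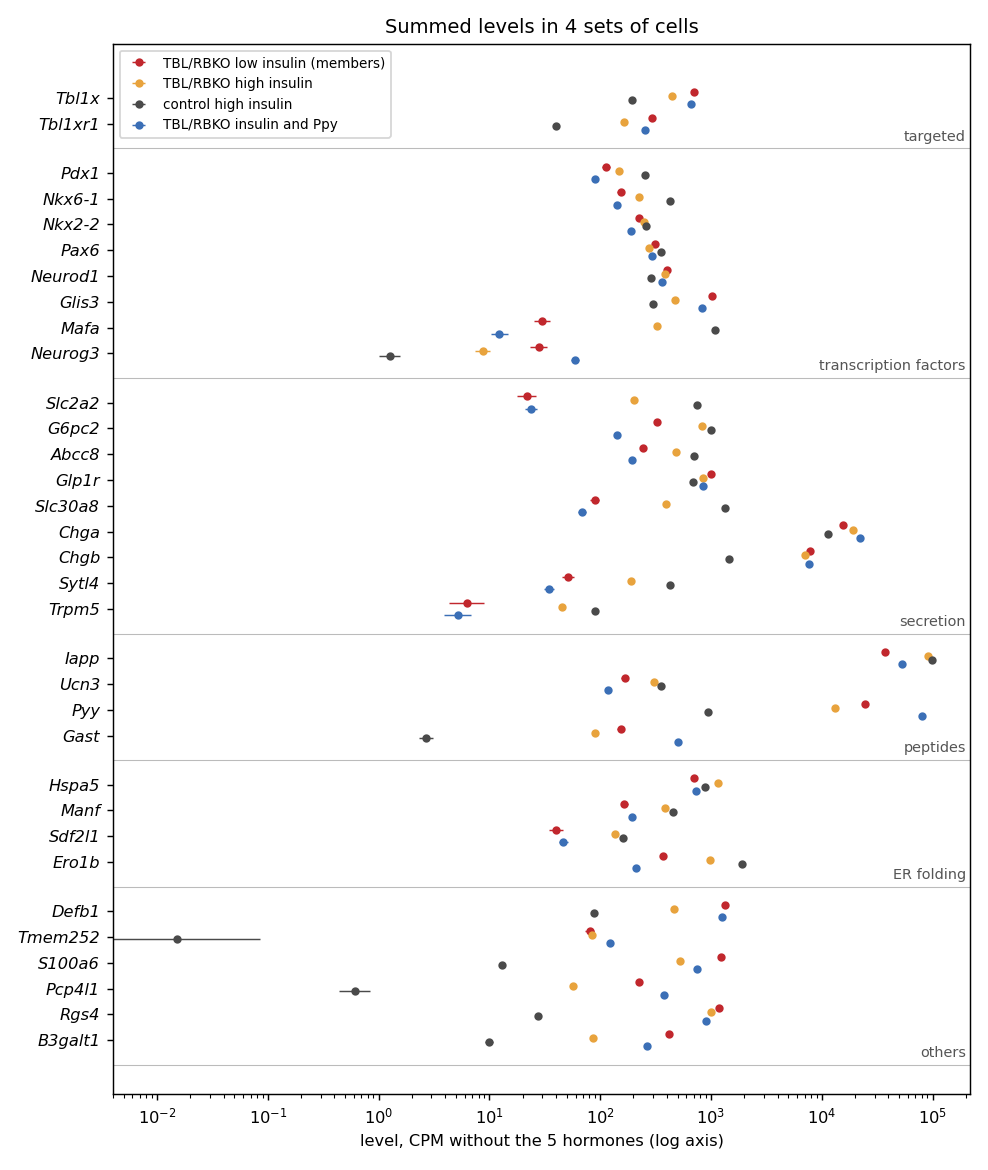
Summed level of named genes in CPM without the 5 rule hormones (log axis) in the 112 low-insulin cells, 447 TBL/RBKO high-insulin cells, 2269 control cells and 212 TBL/RBKO cells with insulin and Ppy; bars are exact 95% Poisson intervals. Red points lie beside blue ones for most genes, and the Mafa and Slc2a2 levels of both are far below control.

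Transcripts of an endocrine progenitor factor were present in part of the cells. Neurog3, which starts the endocrine programme in the embryo, was at 27.9 CPM (23.4 to 32.9), against 8.73 and 1.27, with log2 ratios of 1.67 (1.34 to 2.01) and 4.46 (4.05 to 4.87), and was seen in 25.9% of the cells. After thinning Neurog3 was found in 7.14%, 4.25% and 0.573% of the low-insulin, high-insulin and control cells and in none of the non-endocrine cells. Sox4 was at 131, 55.7 and 57.9 CPM, with a higher level in the non-endocrine cells.

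Of 17 progenitor and dedifferentiation genes, 10 reached 10 CPM, of which 4 were higher and 1 lower than in the high-insulin cells. Against control 8 were higher and none lower, with medians of 0.83 and 2.63. When cells with non-endocrine markers were left out of every set, 3 were higher and 2 lower within the library and 6 were higher against control, with medians of 0.79 and 1.24. Pcp4l1 was at 226 CPM, against 56.5 and 0.611. Aldh1a3, a marker of β-cells that have lost their identity, was counted among the higher genes at 11.6 CPM, but 96.5% of its UMIs lay in the 5 cells with non-endocrine markers and it was at 0.43 CPM without them. Of the 16 transcription factors of other lineages 5 reached 10 CPM, of which Neurog3 and Sox4 were higher than in the high-insulin cells and none was lower. Against control 4 were higher.

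Lists of β-cell states that the study took from earlier published work were counted as well. Over all measured genes 4.03% were higher and 1.91% lower within the library, and 7.73% and 6.71% against control. Of 42 genes of the mature list other than the insulin genes, 41 were measured, with 12 lower and 1 higher than in the high-insulin cells and 17 lower and 2 higher than in control. The medians were -0.34 and -0.67 and turned positive on the scale of all UMIs. Of 21 genes of the immature list 14 were measured, with Alcam higher and Gpx3 lower within the library and 6 higher against control. Of 59 genes of the dedifferentiated list 42 were measured within the library, with 8 higher and 4 lower, and 45 against control, with 17 higher and 3 lower. When cells with non-endocrine markers were left out of every set, 6 were higher and 4 lower within the library. Against control 15 were then higher and 4 lower. Of 16 disallowed genes, which β-cells normally keep silent, only Cat reached 10 CPM, at 16.5 CPM against 5.93 and 5.52. The other 15 were at under 10 CPM in each of these sets.

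Of the cell cycle genes, Mki67 had 1 UMI in the 112 cells and Top2a had 5, which is 1.02 CPM against 26.5 and 22.9. Those transcripts are carried by few cells: Mki67 was seen in 6.04% of the high-insulin and 6.79% of the control cells. Of 14 genes of the response to handling, none was more than 2-fold apart from the high-insulin cells. Against control Hspa1a and Hspa1b were higher and Egr1, Fos, Ier2 and Junb were lower. Hspa1a was at 45.2 CPM with 97.8% of its UMIs in 1 cell. Of 10 measured cytoskeletal and calcium-binding genes 3 were higher in both comparisons, of which Vim and Anxa2 had 63.5% and 76.2% of their UMIs in the 5 cells with non-endocrine markers. The third, S100a6, was at 1227 CPM, against 531 and 13.1, and was seen in 80.4% of the cells. The count of higher genes was again 3 in both comparisons when cells with non-endocrine markers were left out of every set. Another 2 were lower against control, S100a11 at 107 and 287 CPM and Tmsb4x at 342 and 758 CPM.

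Ranked by log2 ratio over the high-insulin cells, the 10 highest genes were Cyp1a1, Fabp4, Edn1, Esm1, Kdr, Nes, Ccn1, Ctla2a, Emcn and Cdh5, many of them genes of endothelial cells. Each was seen in under 5% of the low-insulin cells, and all but Nes had at least 97% of their UMIs in the 5 cells with endothelial, stromal or ductal markers. The 10 lowest were Mki67, Ube2c, Dapl1, Lcn2, Vgf, Cenpf, Top2a, Crybb3, Dnah10 and Mafa. A ranking added after the values were seen left out the cells with such markers and kept genes seen in 25% or more of the cells of either set. Its 10 highest genes included the gene listed as PTPRG, Dtna, Itgb3, Lin7a, Sgip1, Rtl4, Lrrc4c, Efcc1 and B3galt1. The lowest were Vgf, Dapl1, Mafa, Crybb3, Slc2a2, Tmsb15b2, Ppp1r1a, Cdh8, Spp1 and Pard6g.

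B3galt1, a galactosyltransferase, was the most widely detected of the highest genes, in 84.8% of the low-insulin cells. It was at 415 CPM (398 to 434), against 85.9 and 9.97, with log2 ratios of 2.27 (2.18 to 2.37) and 5.38 (5.25 to 5.51). Itgb3, integrin β3, was at 16.9 CPM, against 2.33 and 0.245. Crybb3, a crystallin, was at 21.2 CPM, against 323 and 76.4, so the low-insulin cells lay below control and the high-insulin cells above it.

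Over the control cells the 10 highest included Tmem252, Aebp1, Pcp4l1, Endou, Col1a1, Kif26a, Cadm3, Col3a1 and Csn3, and the 10 lowest were Crb1, Oprm1, Mki67, Vgf, Cdh8, Dapl1, Mafa, Kcng3, Cenpf and Slc2a2. Among the highest genes, the 5 cells with non-endocrine markers held 91.7% of the UMIs of Col1a1, 88.35% of Col3a1, 63.6% of Aebp1 and 36.5% of Cadm3. For the other highest genes named they held 5.66% or less. In the added ranking the 10 highest included Tmem252, Pcp4l1, Endou, Csn3, Tns1, Tmem40, Basp1, S100a6 and Prr29. Csn3, κ-casein, was at 193 CPM and seen in 83.9% of the low-insulin cells, at 214 CPM in the high-insulin cells and at 0.764 in control.

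Levels were also followed over the insulin content of the TBL/RBKO low-insulin and high-insulin cells together, without those with non-endocrine markers. The 7 bins held 43, 37 and 27 low-insulin cells and 66, 91, 141 and 123 high-insulin cells. Mafa was at 9.9, 14.3 and 34.3 CPM in the 3 bins of low-insulin cells and at 56.8, 184, 438 and 559 CPM above. Slc2a2 went from 8.2, 14.9 and 24.5 CPM to 49.9, 132, 267 and 342. Ero1b was at 252, 362 and 516 CPM, then at 608, 714, 1155 and 1352. All 3 were higher in each bin than in the one before, with no step at the limit of 2000.

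Tbl1x, by contrast, was at 707, 703 and 792 CPM in the low-insulin bins, and at 567, 517, 415 and 339 CPM above. Tbl1xr1 was at 305, 288 and 323 CPM, then at 244, 200.3, 138 and 100.1. B3galt1 was at 396, 379 and 516 CPM, then at 217, 102, 57.0 and 20.7, and Defb1 at 1561, 1432 and 1041 CPM, then at 761, 652.5, 324 and 260.0. For these 4 genes the lowest level was that of the cells with the most insulin. Pax6 stayed between 244 and 380 CPM over all 7 bins. Pdx1 was at 91.6 CPM in the lowest bin and 168 in the highest.

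**Figure D4:**
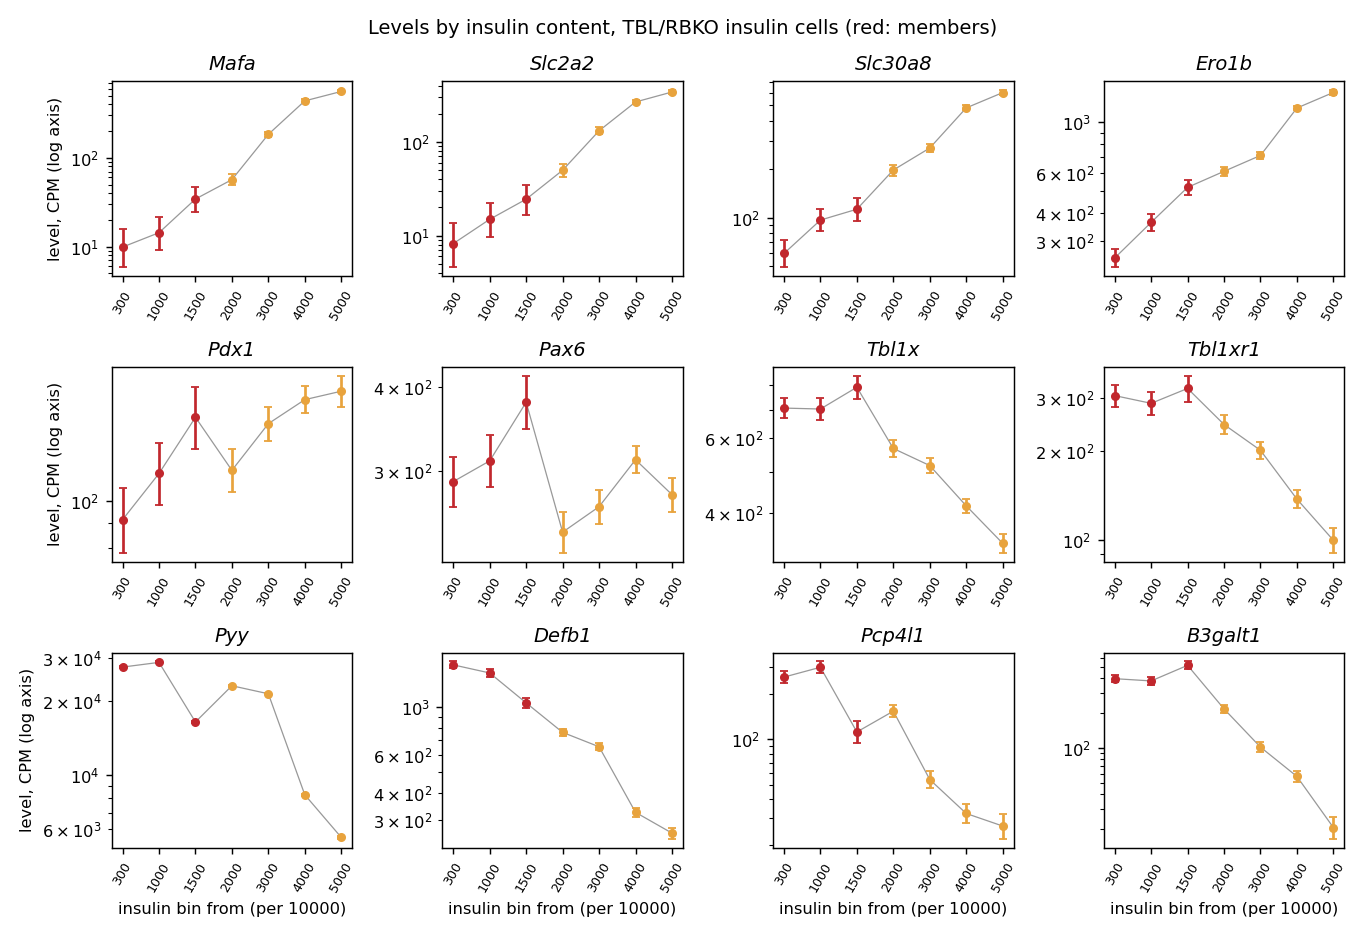
Summed level of 12 genes in CPM (log axes that differ between panels) by insulin content of TBL/RBKO low-insulin and high-insulin cells. The x axis gives the lower bound of each bin in UMIs per 10000, bars are exact 95% Poisson intervals, and red bins are the low-insulin cells. Mafa, Slc2a2, Slc30a8 and Ero1b climb over all bins, while Tbl1x, Tbl1xr1, Defb1 and B3galt1 decline above 2000.

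The low-insulin cells were not uniform in Ppy. Without the 5 cells with non-endocrine markers, 54 had Ppy under 50 UMIs per 10000 and 53 had 50 to 150, with median insulin of 1296 and 967. Pyy was at 13202 CPM in the former and 34152 in the latter. Gast was at 29.9 and 265 CPM, G6pc2, the glucose-6-phosphatase of the islet, at 442 and 237, and Mafa at 31.9 (24.6 to 40.6) and 6.9 (4.1 to 10.9). Slc2a2 went the other way, at 9.32 CPM (5.6 to 14.6) and 19.1 (14.2 to 25.2). Tbl1x was at 725 and 731 CPM and Slc30a8 at 94.2 and 80.3, and their intervals overlapped. The cells with less Ppy were also those with more insulin, and the share of either in these differences was not tested.

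Compared with the 212 cells of the same insulin window that had Ppy at 150 or more, the low-insulin cells were close for most of these genes. Slc2a2 was at 21.8 and 23.8 CPM (log2 -0.13, interval -0.47 to 0.20) and Defb1 at 1338 and 1261 CPM (0.08, 0.04 to 0.13). Tbl1x was at 708 and 664 CPM. Among hormones and progenitor genes, Pyy was at 24473 and 80584 CPM (-1.72, -1.73 to -1.71), Gast at 153 and 501 (-1.71, -1.82 to -1.60) and Neurog3 at 27.9 and 59.1 (-1.09, -1.36 to -0.82). G6pc2 was at 324 and 143 CPM (1.18, 1.07 to 1.28) and Mafa at 29.9 and 12.3 CPM (1.28, 0.93 to 1.64).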

How the data were processed

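Raw UMI counts per gene and barcode were deposited for both libraries. Per the labels, the authors made them with Cell Ranger 7.1.0 on GRCm39 (filtered barcodes, 22383 features with the Cre sequence on either strand), with no removal of free RNA or doublets that the values show. The rule for cells was applied to those counts. No doublet caller was run. Leaving out the deepest barcodes of a library, at 0.8% per 1000 barcodes, was an alternative. UMIs were summed over the cells of a set, scaled to 1000000 without Ins1, Ins2, Gcg, Sst and Ppy, and compared as log2 ratios (0.5 added for ranking and calls) with exact conditional intervals, and exact Poisson or Clopper-Pearson intervals elsewhere. A gene was called past 2-fold among those at 10 CPM in either set. α-Cells had Gcg at 1000 or more per 10000, and non-endocrine cells 20 or more in markers of 1 class. Genes named were the 10 highest and 10 lowest ratios with 50 UMIs or more, the targeted genes, given markers and list members. Members and lists were chosen with earlier results of these data known, and the set with Ppy, the insulin bins and the second ranking after values were seen. Shares after thinning used 5000 UMIs drawn per cell. Positions are from GENCODE M39 on GRCm39. Python 3.11.15, numpy 2.4.6, scipy 1.17.1 and pandas 2.3.3 were used, and the steps were tested on simulated data. With 1 library per genotype no test across samples was possible. Some genes of the lists and rankings are not reported here.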

Additional observations from a re-analysis of the deposited data

How the results depend on the processing

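With all UMIs as the denominator, 2304 genes were higher and 46 lower than in the high-insulin cells (98.0% of calls higher, against 67.9%) and 3252 and 128 against control (96.2% against 53.5%), and the median of all genes moved to 0.76 and 0.85. A minimum of 50 CPM gave 121 higher and 66 lower, and 375 and 259. No minimum gave 2278 and 1097, and 4201 and 1477 (74.0% higher). With fewer than 6000 genes 29 cells remained in the rule, with 904 and 597 genes against the high-insulin cells and 1218 lower against control (42.2% higher), and the median of the disallowed genes against control turned to -0.94. A window of 300 to 1000 took 44 cells and gave 300 lower genes within the library, and Ppy under 50, chosen after seeing the data, took 57 cells. The other counts stayed within 1.5 times, including those without the deepest barcodes. Tbl1x and Tbl1xr1 stayed higher and Mafa and Slc2a2 lower under all alternatives run. For Tbl1x and Tbl1xr1 the denominator of all UMIs could only raise the ratio. Leaving out a replicate was not possible. No paired analysis was possible because each group has 1 library. Counts of 1 to 3 UMIs limit Vgf, Mki67 and other genes near 0, and a share of 112 cells is known to within several percentage points.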
